A study of Mus musculus with 18 samples.

Results

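The mRNAs of 10 amino acid transporters, named as a set linked to the response to amino acid starvation, were followed in L929 cells, a line of mouse fibroblasts. The transporters were Slc7a11, Slc7a5, Slc3a2, Slc7a1, Slc7a3, Slc38a2, Slc1a4, Slc1a5, Slc6a9 and Slc43a1. They were found by gene symbol, which gave 1 gene each, so that 10 of the 57180 genes in the deposited table are described. RNA-seq had been done on 18 libraries, 3 independent cultures in each of 6 groups, to ask how aspartate shapes the response of these cells to cytosolic DNA. Mock cells received no treatment named in the labels, and AOA cells received 0.5 mM AOA (aminooxyacetic acid, an inhibitor of the aminotransferases that make aspartate). AOA+Asp cells received 0.5 mM AOA and 20 mM aspartate. HT-DNA cells were transfected with herring testis DNA, an activator of the DNA sensor cGAS, at 0.5 μg/ml with a lipid reagent and harvested after 6 h. HT-DNA+AOA cells received 0.5 mM AOA for 1 h and then HT-DNA, and HT-DNA+AOA+Asp cells received 20 mM aspartate as well. The cells of all 6 groups were wild type and were grown in DMEM with serum. No group received aspartate alone, and whether Mock and AOA cells received the transfection reagent is not given in the sources used here. For AOA and AOA+Asp cells only a pretreatment of 1 h with AOA is listed, so their total time in AOA is not known here.

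Amino acids cross the plasma membrane through solute carriers that differ in the side chains they accept and in the ion that drives them. When a cell runs short of an amino acid, uncharged tRNA activates the kinase GCN2, phosphorylation of eIF2α slows translation, and the transcription factor ATF4 is made. ATF4 binds with C/EBP partners to composite sites in its target genes, among which are several transporters, amino acid synthesis enzymes and tRNA synthetases. Slc7a11 is also a known target of NRF2, the transcription factor of the oxidative stress response.

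Between 17901580 and 24057322 estimated counts per library fell on genes. The HT-DNA+AOA libraries were spread the widest, with a chi-square per degree of freedom of 67.2 between replicates 1 and 3, 26.1 between replicates 1 and 2 and 18.3 between replicates 2 and 3, where the 15 pairs of replicates in the other groups had 2.78 to 13.3. Levels are given as CPM, counts per 1000000 of a library size scaled by the TMM method, and differences as log2 fold changes from the quasi-likelihood test of edgeR, with p-values adjusted (Benjamini-Hochberg) over the 14263 genes tested. A gene was called at an adjusted p under 0.05. Library totals in place of TMM moved the median of all genes from 0.02 to -0.12 for AOA relative to Mock and from -0.01 to -0.12 for HT-DNA relative to Mock, and the fold changes below are relative to the TMM scale. With library totals, the share of calls that were higher went from 49.1% to 32.1% for AOA relative to Mock, from 50.7% to 62.2% for AOA+Asp relative to AOA, and from 39.0% to 20.9% for AOA+Asp relative to Mock. It went from 50.2% to 35.2% for HT-DNA relative to Mock, from 49.8% to 62.2% for HT-DNA+AOA+Asp relative to HT-DNA+AOA, and from 46.7% to 64.5% for the difference between both AOA effects. Of 10 fibroblast markers, 8 were over 1 CPM in every library (Vim 2300.0 to 2970.0 CPM), whereas Thy1 and Fap were at most 0.168 CPM. The summed level of 6 leukocyte, 4 epithelial and 3 endothelial markers stayed under 1 CPM in every library, and Ptprc, Cd3e and Adgre1 were at 0.

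Of the 10 transporters, 9 passed the filter on low counts and were tested. Levels per kilobase used the longest annotated transcript of each gene. By this measure Slc38a2 had the highest level in Mock cells (97.4 ± 3.69 CPM per kb; SD, n = 3), followed by Slc3a2 (60.5 ± 1.3 CPM per kb; SD, n = 3) and Slc1a5 (48.8 ± 1.14 CPM per kb; SD, n = 3). Slc7a1 (43.9 ± 3.75 CPM per kb; SD, n = 3) and Slc7a5 (41.2 ± 2.06 CPM per kb; SD, n = 3) came next, and these neighbours did not differ beyond their spread. Slc7a3, Slc6a9 and Slc1a4 lay at 28.1, 19.6 and 17 CPM per kb. Slc7a11 was the lowest of the 9 at 4.08 ± 0.151 CPM per kb (SD, n = 3). The last, Slc43a1 (ENSMUSG00000027075), the large neutral amino acid transporter LAT3, had 4 or 5 counts in each Mock library, 0, 0 and 1 with AOA, and 0, 3 and 7 with HT-DNA. At 0 to 7 counts in the 18 libraries Slc43a1 was not tested in the fit reported here. Without the filter on low counts it was called lower for AOA relative to Mock (1 count against 14 over the 3 libraries, ratio 0.0729 with an exact 95% interval of 0.00172 to 0.479 for counting error only, edgeR adjusted p = 0.0375) and in none of the other comparisons. HT-DNA+AOA had 1 count against 10 with HT-DNA (edgeR adjusted p = 0.121 without the filter).

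With AOA alone, 6 of the 9 tested transporters rose and 1 fell relative to Mock, where 22.5% of all genes tested were called higher and 23.2% lower. Their median log2 fold change was 0.44, against 0.02 for all genes. Slc3a2 and Slc7a5, which pair as the large neutral amino acid exchanger, had the largest rises, and Slc7a11 was the one of the 9 that fell. Aspartate added to AOA lowered 6 of the 9 and raised 2 relative to AOA, where 22.8% of all genes were called lower and 23.4% higher, with a median of -0.54 against -0.01. AOA+Asp cells differed from Mock in 2 of the 9, Slc3a2 (higher) and Slc1a5 (lower), where 2.52% of all genes were called higher and 3.95% lower. These comparisons share the Mock or AOA libraries, so their values are not independent of each other.

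HT-DNA alone lowered 5 of the 9 transporters relative to Mock and raised 2, where 24% of all genes were called lower and 24.2% higher. The median was -0.22 against -0.01 for all genes, and Slc6a9 and Slc7a11 had the largest falls. In HT-DNA-treated cells, AOA raised 6 of the 9 and lowered none, where 22.8% of all genes were called higher and 22.7% lower, with a median of 0.58 against 0.02. With no transporter lower there by edgeR, none was lower at an unadjusted p under 0.05 and none by DESeq2. Slc38a2 was called lower there with correction for GC content and transcript length (-0.27, edgeR adjusted p = 1.02e-05). It was also called lower without HT-DNA+AOA replicate 1 (-0.27, edgeR adjusted p = 0.0141). Adding aspartate to HT-DNA+AOA changed 9 of 9, with 7 lower and 2 higher, where 23.9% of all genes were called lower and 23.7% higher, and the median was -0.32 against -0.01. Relative to HT-DNA alone, HT-DNA+AOA+Asp cells had 6 of the 9 higher and 2 lower, where 23.2% of all genes were called higher and 23.5% lower, with a median of 0.43 against 0.003.

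**Figure D1:**
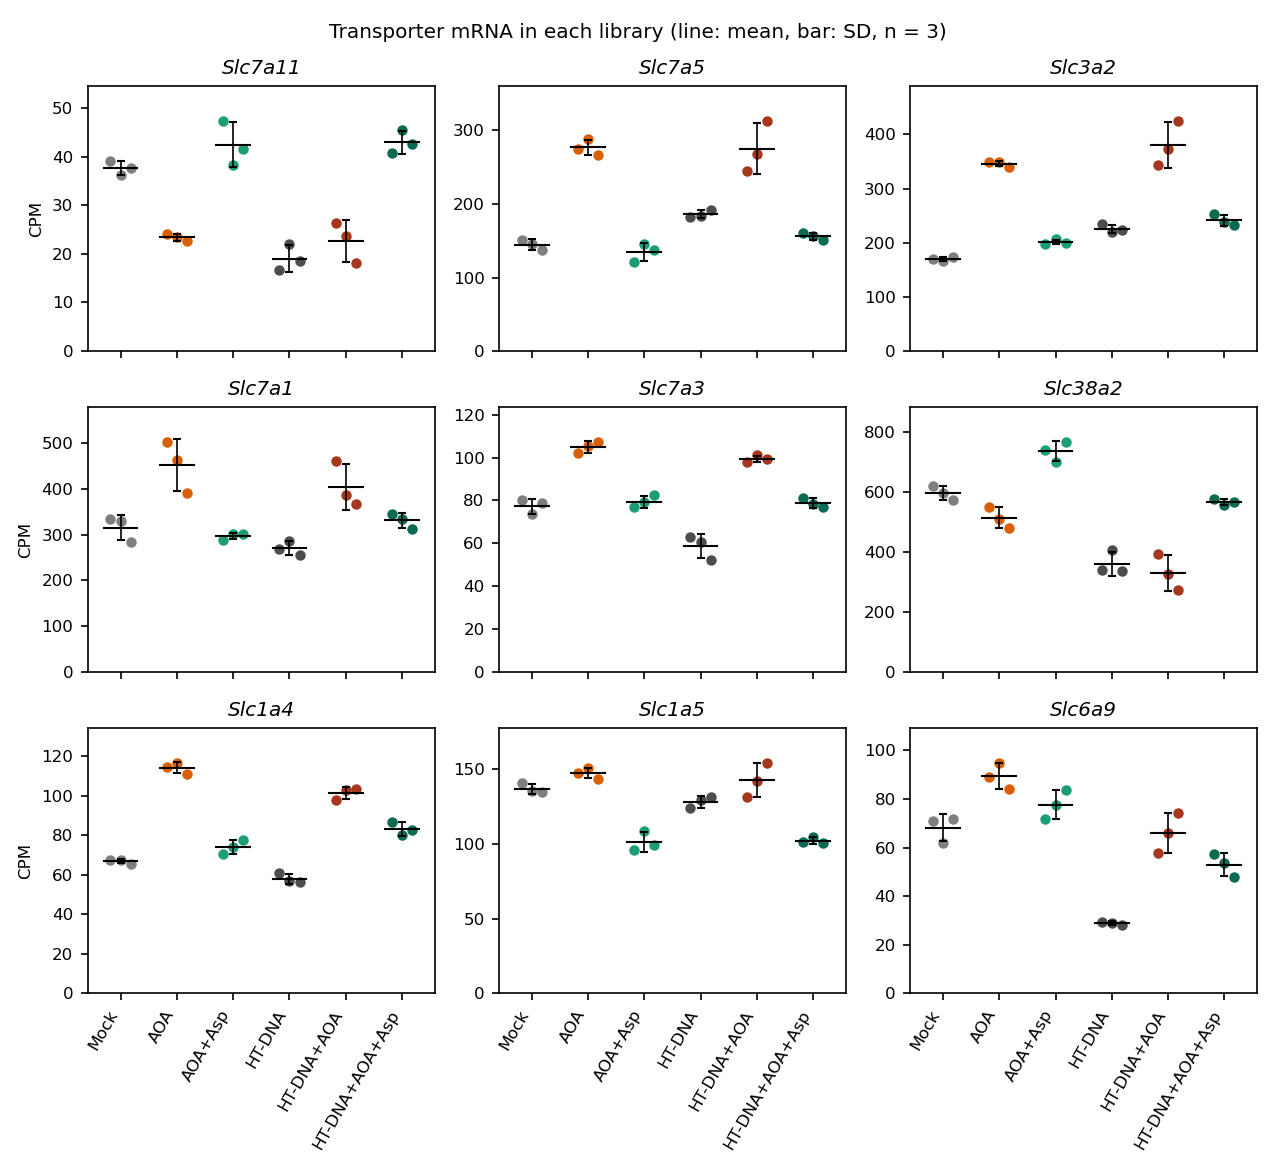
Levels (CPM, linear axes from 0) of the 9 tested transporters in the 3 libraries of each group, with the mean as a line and the SD as a bar. Slc3a2 and Slc7a5 stood highest in both AOA groups without aspartate, Slc7a11 had its highest means in both groups with aspartate, Slc38a2 had its highest in AOA+Asp, and Slc6a9 stood lowest in HT-DNA at 28.2 to 29.5 CPM.

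Slc3a2 encodes the heavy chain CD98hc, which carries several light chains to the plasma membrane, among them those encoded by Slc7a5 and Slc7a11 (ENSMUSG00000010095, GENCODE vM21, GRCm38 chr19:8706882-8723369, minus strand). Its level was 170.5, 166.5 and 173.8 CPM in the Mock libraries and 348.8, 349.5 and 340.1 CPM with AOA. With AOA+Asp it was 198.3, 206.6 and 199.9 CPM. No AOA library overlapped with either of these other groups, and the AOA level was 2.03 times that of Mock (log2 fold change 1.02, SE 0.07, edgeR adjusted p = 1.74e-09). Aspartate lowered Slc3a2 by a log2 fold change of -0.78 (SE 0.07, edgeR adjusted p = 6.43e-08) relative to AOA. AOA+Asp was still higher than Mock by 0.24 on the log2 scale (edgeR adjusted p = 0.0382), a call that was lost without any 1 of the 6 libraries (adjusted p 0.0794 to 0.151) and without the filter on low counts (adjusted p = 0.105). The call held with library totals (0.20, edgeR adjusted p = 0.0439) and with correction for GC content and length (0.33, edgeR adjusted p = 6.06e-06).

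HT-DNA raised Slc3a2 as well, to 233.8, 220.3 and 223.7 CPM (log2 fold change 0.41, SE 0.07, edgeR adjusted p = 0.000147), or 0.23 when corrected for GC content and transcript length. With HT-DNA+AOA it reached 343.5, 372.3 and 425.7 CPM, a log2 fold change of 0.75 relative to HT-DNA (SE 0.07, edgeR adjusted p = 4.55e-08). The log2 fold change was 0.66 without replicate 3, the highest of these libraries, and 0.82 without replicate 1, the lowest. HT-DNA+AOA+Asp had 252.9, 237.5 and 233.4 CPM, below every HT-DNA+AOA library (log2 fold change -0.66, edgeR adjusted p = 3.7e-07) and overlapping with HT-DNA (log2 fold change 0.09, 95% interval -0.04 to 0.23). Corrected for GC content and length, the latter was 0.31 (adjusted p = 5.66e-06). About 4.15% of the 31-base sequences of Slc3a2 occur in other genes, and 17 of its 18 values were not whole numbers.

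Slc7a5 encodes LAT1, the light chain that exchanges intracellular glutamine for leucine and other large neutral amino acids (ENSMUSG00000040010, GRCm38 chr8:121881150-121907694, minus strand). Mock libraries had 151.3, 146.0 and 137.0 CPM and AOA libraries 275.5, 288.1 and 267.3 CPM. Slc7a5 thus rose 1.91-fold with AOA (log2 fold change 0.94, SE 0.08, edgeR adjusted p = 4.94e-08). With AOA+Asp, at 121.7, 145.1 and 138.1 CPM, it was lower than with AOA (log2 fold change -1.04, SE 0.08, edgeR adjusted p = 1.88e-08) and overlapped with Mock. The difference from Mock was -0.10 (95% interval -0.26 to 0.06).

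In the HT-DNA arm, Slc7a5 rose from Mock to 183.0, 184.1 and 192.5 CPM with HT-DNA (log2 fold change 0.37, SE 0.08, edgeR adjusted p = 0.00153), or 0.18 when corrected for GC content and length. HT-DNA+AOA libraries had 245.3, 267.4 and 313.5 CPM, all above HT-DNA (log2 fold change 0.56, SE 0.08, edgeR adjusted p = 1.54e-05). Without replicate 3, again the highest, the log2 fold change was 0.46, and without replicate 1, again the lowest, it was 0.64. HT-DNA+AOA+Asp libraries had 160.2, 156.9 and 150.6 CPM, lower than HT-DNA+AOA (log2 fold change -0.82, edgeR adjusted p = 2.36e-07). They were also below the 3 HT-DNA libraries (log2 fold change -0.26, edgeR adjusted p = 0.0151), but this call was lost without HT-DNA replicate 3 (adjusted p = 0.0581) or HT-DNA+AOA+Asp replicate 3 (adjusted p = 0.0595). When GC content and transcript length were corrected for, the difference was 0.02, with the opposite sign.

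**Figure D2:**
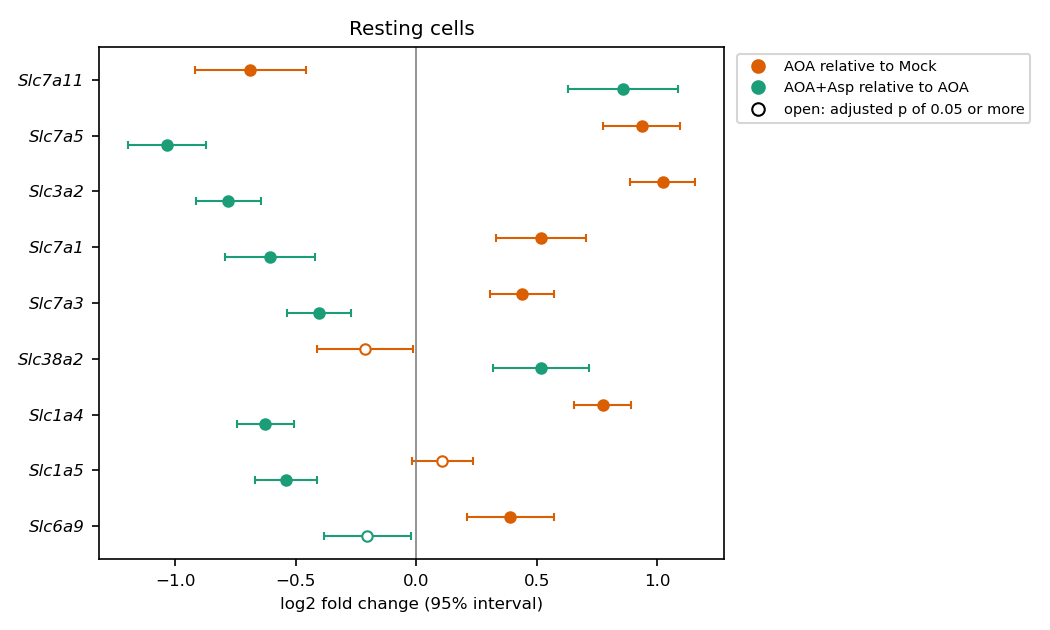
Log2 fold changes with 95% intervals for AOA relative to Mock and for AOA+Asp relative to AOA, which share the AOA libraries; filled points passed an adjusted p of 0.05. AOA values ran from -0.69 (Slc7a11) to 1.02 (Slc3a2) and aspartate values from -1.04 (Slc7a5) to 0.86 (Slc7a11).

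Slc7a11 encodes xCT, the light chain that imports cystine in exchange for glutamate and so feeds glutathione synthesis (ENSMUSG00000027737, GRCm38 chr3:49892526-50443614, minus strand). It moved in the opposite direction to its partner Slc3a2 with AOA alone and with HT-DNA alone. Mock libraries had 39.1, 36.3 and 37.7 CPM, and AOA libraries had 24, 23.4 and 22.6 CPM. The groups did not overlap, and Slc7a11 fell with AOA to 0.62 times its Mock level (log2 fold change -0.69, SE 0.12, edgeR adjusted p = 0.000101). With AOA+Asp the level was 47.4, 38.3 and 41.6 CPM, above the AOA libraries (log2 fold change 0.86, SE 0.12, edgeR adjusted p = 1.04e-05) and overlapping with Mock (log2 fold change 0.17, 95% interval -0.05 to 0.39).

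HT-DNA lowered Slc7a11 to 16.7, 22.0 and 18.4 CPM (log2 fold change -0.98, SE 0.12, edgeR adjusted p = 6.45e-06). HT-DNA+AOA libraries had 26.3, 23.6 and 18 CPM and overlapped with HT-DNA (log2 fold change 0.25, 95% interval 0.01 to 0.49, edgeR adjusted p = 0.0993). This difference passed the threshold without HT-DNA replicate 2 (0.36, adjusted p = 0.0281) or HT-DNA+AOA replicate 3 (0.39, adjusted p = 0.00458), and was 0.07 when corrected for GC content and length (adjusted p = 0.468). HT-DNA+AOA+Asp libraries had 40.7, 45.4 and 42.6 CPM, 1.89 times the HT-DNA+AOA level (log2 fold change 0.92, SE 0.12, edgeR adjusted p = 4.61e-06) and 2.25 times the HT-DNA level (log2 fold change 1.17, SE 0.12, edgeR adjusted p = 2.37e-06). HT-DNA, HT-DNA+AOA and AOA thus averaged 19.0 to 23.4 CPM, with HT-DNA+AOA overlapping both of its neighbours in this order, and Mock, AOA+Asp and HT-DNA+AOA+Asp lay at 37.7 to 42.9 CPM.

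By the longest annotated transcript of each gene, Slc7a11 is the longest of the 10 (9223 bases) and has the lowest GC content (40.7%). Correcting for GC content and length brought its log2 fold changes closer to 0 without ending a call, from -0.69 to -0.41 for AOA relative to Mock, from 0.86 to 0.41 for AOA+Asp relative to AOA, and from -0.98 to -0.44 for HT-DNA relative to Mock. For HT-DNA+AOA+Asp it went from 0.92 to 0.55 relative to HT-DNA+AOA and from 1.17 to 0.61 relative to HT-DNA. Other genes hold 4.27% of its 31-base sequences, none of its 18 values was a whole number, and 3 processed pseudogenes lie within its locus.

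The proximal promoter of Slc7a11 is shown with that of Slc1a4, the neutral amino acid transporter described below, because both hold the core of the C/EBP-ATF composite site and their mRNAs differed in direction with AOA. The windows (RefSeq, GRCm38.p6) run from 250 bases before to 50 bases after the annotated start, 5′ to 3′ on the strand of the gene (minus for both), at chr3:50443564-50443863 for Slc7a11 and chr11:20332664-20332963 for Slc1a4. Capitals mark matches to TGATGNAA on either strand.
Slc7a11: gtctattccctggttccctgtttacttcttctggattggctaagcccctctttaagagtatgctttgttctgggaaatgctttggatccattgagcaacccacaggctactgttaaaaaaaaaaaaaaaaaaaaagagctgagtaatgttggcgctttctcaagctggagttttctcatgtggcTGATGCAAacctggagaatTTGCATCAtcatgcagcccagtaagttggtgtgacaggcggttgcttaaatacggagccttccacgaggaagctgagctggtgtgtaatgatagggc
Slc1a4: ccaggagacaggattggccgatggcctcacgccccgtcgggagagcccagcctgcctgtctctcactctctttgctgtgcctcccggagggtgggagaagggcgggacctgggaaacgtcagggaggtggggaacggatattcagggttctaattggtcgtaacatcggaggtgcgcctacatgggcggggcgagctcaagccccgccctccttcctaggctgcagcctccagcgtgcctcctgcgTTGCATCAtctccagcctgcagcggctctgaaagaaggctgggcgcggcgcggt
Slc7a11 has 2 matches facing each other, TGATGCAA starting 66 bases and TTGCATCA starting 47 bases before the start, and Slc1a4 has 1, TTGCATCA, starting 4 bases before it. Promoter windows were at hand for 7 of the 10 transporters (10 windows in all), and these were the 2 windows with a match, where 3.97% of 32851 promoters of this length hold one. The letters TGACNNNGC, the core of the antioxidant response element that NRF2 binds, were in 5 of the 10 windows, from Slc43a1, Slc6a9, Slc7a1 and Slc38a2, and in neither printed window, and 12.4% of all promoters hold them. A match is a string of letters in this window and not a measured binding site.

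Because Slc7a5 and Slc7a11 encode light chains of the same heavy chain, their mRNAs were set against each other per kilobase. The Slc7a11 to Slc7a5 ratio was 0.0984, 0.0947 and 0.105 in Mock and 0.0332, 0.031 and 0.0323 with AOA. AOA+Asp libraries had 0.148, 0.101 and 0.115, HT-DNA libraries 0.0347, 0.0455 and 0.0365, and HT-DNA+AOA libraries 0.0408, 0.0337 and 0.0219. HT-DNA+AOA+Asp libraries had 0.0969, 0.11 and 0.108. The 3 groups that had AOA or HT-DNA and no aspartate thus lay below 0.05 in every library, and the other 3 groups lay above 0.09. These ratios are not corrected for GC content. For HT-DNA relative to Mock, the correction for GC content and length took Slc7a11 from -0.98 to -0.44 and Slc7a5 from 0.37 to 0.18. The fall of the ratio with HT-DNA is thus smaller on that scale. For AOA relative to Mock the corrected values were -0.41 and 0.96. An exact permutation test of 3 against 3 cannot go below p = 0.1, so no p is given for single pairs of groups. The Slc7a5 to Slc3a2 ratio per kilobase varied less, from 0.517 ± 0.0108 (HT-DNA+AOA+Asp) to 0.681 ± 0.0435 (Mock; SD, n = 3 each).

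**Figure D3:**
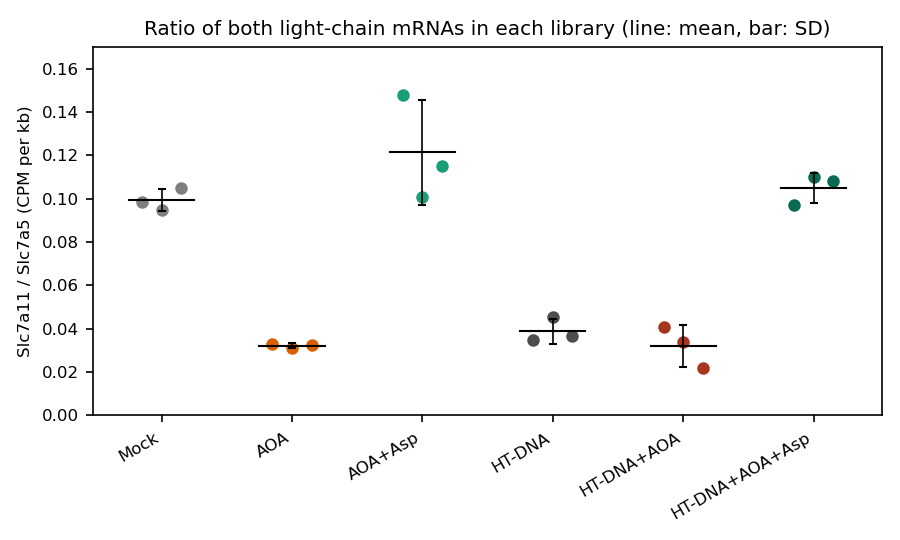
Ratio of Slc7a11 to Slc7a5 mRNA (both in CPM per kb, linear axis from 0) in each library, with the group mean as a line and the SD as a bar (n = 3). No correction for GC content was applied. Mock, AOA+Asp and HT-DNA+AOA+Asp had means of 0.0993, 0.121 and 0.105, against 0.0322, 0.0389 and 0.0321 for AOA, HT-DNA and HT-DNA+AOA.

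The cationic amino acid transporters Slc7a1 (CAT1, the widely expressed arginine and lysine transporter, ENSMUSG00000041313, GRCm38 chr5:148327410-148399904, minus strand) and Slc7a3 (CAT3, ENSMUSG00000031297, GRCm38 chrX:101079210-101086020, minus strand) both rose with AOA. Slc7a1 had 333.1, 329.0 and 284.5 CPM in Mock and 503.0, 462.1 and 391.5 CPM with AOA (log2 fold change 0.52, SE 0.09, edgeR adjusted p = 0.000207). Slc7a3 had 80.1, 73.4 and 78.6 CPM in Mock and 102.1, 105.5 and 107.4 CPM with AOA (log2 fold change 0.44, SE 0.07, edgeR adjusted p = 3.83e-05). In neither gene did the groups overlap, and the spread between AOA libraries was wider for Slc7a1. AOA+Asp lowered both relative to AOA, Slc7a1 to 288.4, 301.7 and 301.1 CPM (log2 fold change -0.61, SE 0.10, edgeR adjusted p = 4.74e-05) and Slc7a3 to 76.9, 79.1 and 82.3 CPM (log2 fold change -0.40, SE 0.07, edgeR adjusted p = 0.000104). Relative to Mock, the AOA+Asp differences were -0.09 (95% interval -0.27 to 0.10) for Slc7a1 and 0.04 (95% interval -0.10 to 0.17) for Slc7a3.

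HT-DNA lowered Slc7a3 to 63.2, 60.6 and 52.2 CPM (log2 fold change -0.40, SE 0.07, edgeR adjusted p = 0.00018). Slc7a1, at 268.1, 286.2 and 256.4 CPM, overlapped with Mock (log2 fold change -0.22, edgeR adjusted p = 0.0591), and passed the threshold without Mock replicate 3 (-0.29, adjusted p = 0.0286) or HT-DNA replicate 2 (-0.27, adjusted p = 0.0446). It also passed with DESeq2 (adjusted p = 0.0415), library totals (-0.33, adjusted p = 0.0135), a minimum of 10 counts per library (adjusted p = 0.0414) and only the libraries compared (adjusted p = 0.00846). Corrected for GC content and length it was 0.02. AOA raised both genes in HT-DNA-treated cells, Slc7a3 to 98.0, 101.0 and 99.2 CPM (log2 fold change 0.76, SE 0.07, edgeR adjusted p = 4.22e-08) and Slc7a1 to 461.4, 386.0 and 365.9 CPM (log2 fold change 0.58, SE 0.10, edgeR adjusted p = 5.58e-05). Both were lower again with HT-DNA+AOA+Asp, Slc7a3 at 81.3, 78.3 and 76.8 CPM (log2 fold change -0.33, edgeR adjusted p = 0.000578) and Slc7a1 at 345.2, 335.2 and 313.3 CPM (log2 fold change -0.29, edgeR adjusted p = 0.018).

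The Slc7a1 call for HT-DNA+AOA+Asp relative to HT-DNA+AOA was lost without HT-DNA+AOA replicate 1 (-0.18, adjusted p = 0.0791) or HT-DNA+AOA+Asp replicate 3 (-0.25, adjusted p = 0.0782). It was also lost with library totals (-0.20, adjusted p = 0.118) and when only these libraries were fitted (-0.29, adjusted p = 0.0675), and was -0.48 when corrected for GC content and length (adjusted p = 1.86e-07). HT-DNA+AOA+Asp stayed above HT-DNA for Slc7a3 (log2 fold change 0.43, edgeR adjusted p = 0.000144) and Slc7a1 (log2 fold change 0.29, edgeR adjusted p = 0.0171). The latter call was lost without HT-DNA replicate 1 (adjusted p = 0.0508), HT-DNA replicate 3 (adjusted p = 0.0749) or HT-DNA+AOA+Asp replicate 1 (adjusted p = 0.0638), and when corrected for GC content and length (0.13, adjusted p = 0.0535).

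Among the transporters of small neutral amino acids, Slc1a4 and Slc1a5, close relatives of the glutamate carriers, responded unequally to AOA. Slc1a4 encodes ASCT1, a carrier of alanine, serine and cysteine (ENSMUSG00000020142, GRCm38 chr11:20302180-20332713, minus strand), and its promoter window is printed above. Mock libraries had 67.4, 67.5 and 65.6 CPM and AOA libraries 114.7, 116.8 and 111.2 CPM, a rise of 1.71-fold (log2 fold change 0.77, SE 0.06, edgeR adjusted p = 1.25e-08). AOA+Asp libraries had 70.3, 74.1 and 77.6 CPM, all below AOA (log2 fold change -0.63, SE 0.06, edgeR adjusted p = 1.94e-07). They were above the Mock libraries without passing the threshold (log2 fold change 0.15, edgeR adjusted p = 0.162), and passed it when corrected for GC content and length (0.23, adjusted p = 0.00117).

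HT-DNA libraries had 61.0, 56.9 and 56.3 CPM of Slc1a4, below Mock (log2 fold change -0.20, SE 0.06, edgeR adjusted p = 0.0107), a call that was lost without HT-DNA replicate 3 (adjusted p = 0.0511) and without the filter on low counts (adjusted p = 0.143). The call was kept with library totals (-0.31, edgeR adjusted p = 0.000463) and with correction for GC content and length (-0.255, edgeR adjusted p = 0.000116). HT-DNA+AOA raised Slc1a4 to 98.1, 102.9 and 103.5 CPM (log2 fold change 0.81, SE 0.06, edgeR adjusted p = 4.43e-09). With HT-DNA+AOA+Asp it was 86.9, 80.2 and 82.7 CPM, between both of these groups and apart from each (log2 fold change -0.29 relative to HT-DNA+AOA, edgeR adjusted p = 0.00077, and 0.52 relative to HT-DNA, edgeR adjusted p = 9.41e-06).

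Slc1a5 encodes ASCT2, the main glutamine carrier of many proliferating cells (ENSMUSG00000001918, GRCm38 chr7:16781340-16798274, plus strand). Its level was 140.6, 135.2 and 134.8 CPM in Mock and 147.6, 151.1 and 143.9 CPM with AOA, a difference of 0.11 that did not pass the threshold (95% interval -0.02 to 0.24, edgeR adjusted p = 0.185) and was -0.02 with library totals. It was 0.13 and passed when corrected for GC content and length (adjusted p = 0.0371). AOA+Asp libraries had 96.2, 108.5 and 99.3 CPM, lower than AOA (log2 fold change -0.54, SE 0.07, edgeR adjusted p = 2.87e-06) and lower than Mock (log2 fold change -0.43, SE 0.07, edgeR adjusted p = 0.000393). Slc1a5 was thus at its lowest in resting cells where AOA and aspartate were combined.

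The same held in the HT-DNA arm. HT-DNA libraries had 123.9, 129.6 and 131.2 CPM of Slc1a5 (log2 fold change -0.09 relative to Mock, edgeR adjusted p = 0.246). HT-DNA+AOA libraries had 131.5, 142.4 and 154.5 CPM (log2 fold change 0.15 relative to HT-DNA, edgeR adjusted p = 0.0617), which passed the threshold without HT-DNA+AOA replicate 1 (0.21, adjusted p = 0.0122), with DESeq2 (0.17, adjusted p = 0.0184), with RLE normalization (0.17, adjusted p = 0.0384) and with a minimum of 10 counts per library (0.18, adjusted p = 0.0282). HT-DNA+AOA+Asp libraries had 101.2, 105.0 and 100.7 CPM, lower than HT-DNA+AOA (log2 fold change -0.48, SE 0.07, edgeR adjusted p = 9.87e-06) and lower than HT-DNA (log2 fold change -0.33, SE 0.07, edgeR adjusted p = 0.000802). Corrected for GC content and length, the difference from HT-DNA alone was 0.02 and lost its call, the difference of HT-DNA from Mock was -0.37 (adjusted p = 5.94e-06) and that of HT-DNA+AOA from HT-DNA was 0.41 (adjusted p = 4.5e-07). With library totals, HT-DNA differed from Mock by -0.20 (adjusted p = 0.00782). The Slc1a4 to Slc1a5 ratio per kilobase was 0.349 ± 0.00728 in Mock and 0.324 ± 0.0244 with HT-DNA, and 0.510 ± 0.0277 to 0.582 ± 0.0338 in the 4 groups with AOA (SD, n = 3 each).

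Slc38a2 encodes SNAT2, the sodium-coupled neutral amino acid transporter of the amino acid starvation response (ENSMUSG00000022462, GRCm38 chr15:96687392-96699730, minus strand). Its level was 618.7, 595.0 and 573.6 CPM in Mock and 550.5, 510.1 and 481.4 CPM with AOA. The groups did not overlap, but the log2 fold change of -0.21 did not pass the threshold (95% interval -0.41 to -0.02, edgeR adjusted p = 0.0929). With AOA+Asp it was 740.8, 700.0 and 767.6 CPM, above every AOA library (log2 fold change 0.52, SE 0.10, edgeR adjusted p = 0.000406) and every Mock library (log2 fold change 0.31, edgeR adjusted p = 0.0791). The AOA difference from Mock passed the threshold with library totals (-0.34, adjusted p = 0.0181), without the filter on low counts (-0.22, adjusted p = 0.0479) and when only these libraries were fitted (-0.22, adjusted p = 0.00579), whereas it was -0.05 when corrected for GC content and length (adjusted p = 0.291). The AOA+Asp difference from Mock passed with DESeq2 (adjusted p = 0.037), without the filter (adjusted p = 0.0135), with only these libraries (adjusted p = 0.000578) and when corrected for GC content and length (0.23, adjusted p = 0.000545).

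HT-DNA lowered Slc38a2 to 339.2, 406.3 and 336.6 CPM (log2 fold change -0.72, SE 0.10, edgeR adjusted p = 2.93e-05). HT-DNA+AOA libraries had 393.1, 326.9 and 273.0 CPM and overlapped with HT-DNA (log2 fold change -0.12, 95% interval -0.32 to 0.07, edgeR adjusted p = 0.341). Without HT-DNA+AOA replicate 1 the difference was -0.27 (adjusted p = 0.0141), and corrected for GC content and length it was also -0.27 (adjusted p = 1.02e-05). HT-DNA+AOA+Asp libraries had 576.7, 557.2 and 566.1 CPM, above both HT-DNA+AOA (log2 fold change 0.78, SE 0.10, edgeR adjusted p = 6.03e-06) and HT-DNA (log2 fold change 0.65, SE 0.10, edgeR adjusted p = 0.000105). Slc38a2 and Slc7a11 were the 2 of the 9 that aspartate raised in AOA-treated cells of both arms. Corrected for GC content and length, Slc38a2 went from -0.72 to -0.31 for HT-DNA relative to Mock, from 0.52 to 0.28 for AOA+Asp relative to AOA and from 0.65 to 0.25 for HT-DNA+AOA+Asp relative to HT-DNA, with each call kept.

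Slc6a9 encodes GLYT1, a sodium- and chloride-coupled glycine transporter (ENSMUSG00000028542, GRCm38 chr4:117834506-117875198, plus strand). It had the largest response of the 9 to HT-DNA. Mock libraries had 70.9, 61.8 and 71.9 CPM and HT-DNA libraries 29.5, 29.1 and 28.2 CPM, so that HT-DNA left 0.424 times the Mock level (log2 fold change -1.24, SE 0.10, edgeR adjusted p = 4.49e-08). With AOA alone, at 89.0, 95 and 84.2 CPM, Slc6a9 was above Mock (log2 fold change 0.39, SE 0.09, edgeR adjusted p = 0.00205). AOA+Asp libraries had 71.9, 77.4 and 83.7 CPM, below AOA without passing the threshold (log2 fold change -0.20, 95% interval -0.38 to -0.02, edgeR adjusted p = 0.0799). It passed when only these libraries were fitted (adjusted p = 0.0287), and AOA+Asp was above Mock by 0.19 (edgeR adjusted p = 0.254), or by 0.31 when corrected for GC content and length (adjusted p = 0.00244).

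In HT-DNA-treated cells, AOA raised Slc6a9 to 57.7, 66.0 and 74.4 CPM, 2.28 times the HT-DNA level (log2 fold change 1.19, SE 0.10, edgeR adjusted p = 1.14e-08), and these libraries reached the range of Mock. HT-DNA+AOA+Asp libraries had 57.4, 53.5 and 48.0 CPM, above HT-DNA (log2 fold change 0.87, SE 0.10, edgeR adjusted p = 5.74e-06) and just below HT-DNA+AOA (log2 fold change -0.32, edgeR adjusted p = 0.00986). The last call was lost without HT-DNA+AOA replicate 3 (-0.22, adjusted p = 0.0538) or HT-DNA+AOA+Asp replicate 3 (-0.25, adjusted p = 0.0623), and when only these libraries were fitted (-0.32, adjusted p = 0.0724). Other genes hold 28.4% of the 31-base sequences of Slc6a9, 17 of its 18 values were not whole numbers, and it overlaps B4galt2, Ccdc24 and a noncoding RNA on the opposite strand, so its level is less certain than the others. For HT-DNA relative to Mock, B4galt2 and Ccdc24 had log2 fold changes of 0.31 and 0.29. For HT-DNA+AOA relative to HT-DNA they had -0.28 (B4galt2) and -0.51 (Ccdc24). The part of shared or overlapping sequence in the Slc6a9 values was not tested. In bulk RNA, fewer cells with a transcript and less transcript per cell cannot be told apart.

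Whether AOA acted alike without and with HT-DNA was tested as the difference of both AOA effects. If the arms also differed in their time in AOA, that cannot be told apart from HT-DNA here. Of the 9 transporters, 3 had a higher AOA effect with HT-DNA and 1 a lower one, where 7.23% of all genes tested were called higher and 8.26% lower. The difference was 0.94 for Slc7a11 (SE 0.17, edgeR adjusted p = 0.0017), which fell with AOA alone and had a value of 0.25 below the threshold with HT-DNA. It was 0.80 for Slc6a9 (SE 0.13, edgeR adjusted p = 0.000986), which rose in both settings, by 0.39 and 1.19. Both calls held without each of the 12 libraries in turn, with ranges of 0.82 to 1.08 for Slc7a11 and 0.71 to 0.89 for Slc6a9, and with GC content and length corrected for (0.48 and 1.02).

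Slc7a3 had a difference of 0.32 (SE 0.10, edgeR adjusted p = 0.0323) and Slc7a5 one of -0.37 (SE 0.12, edgeR adjusted p = 0.036), and neither call held throughout. The Slc7a5 call was lost without any of 10 of the 12 libraries (adjusted p 0.0504 to 0.089), all but AOA replicate 3 and HT-DNA+AOA replicate 3, and with library totals (-0.29, adjusted p = 0.0703) or correction for GC content and length (-0.17, adjusted p = 0.0529). The Slc7a3 call was lost without 6 of the 12 (adjusted p 0.0626 to 0.0982), namely Mock replicates 1 and 3, AOA replicates 1 and 2, HT-DNA replicate 3 and HT-DNA+AOA replicate 2. When only the libraries compared were fitted, both calls were lost (edgeR adjusted p = 0.0685 for Slc7a5 and 0.0972 for Slc7a3). That of Slc7a3 was also lost without the filter on low counts (edgeR adjusted p = 0.132). It held with library totals (0.41, edgeR adjusted p = 0.0105) and with correction for GC content and length (0.31, edgeR adjusted p = 0.0101). Slc3a2 had -0.27 (edgeR adjusted p = 0.0627), which passed without HT-DNA+AOA replicate 3 (-0.36, adjusted p = 0.00143). For Slc7a1, Slc38a2, Slc1a4 and Slc1a5, none of them called, the differences were 0.06, 0.09, 0.03 and 0.05, with 95% intervals of -0.20 to 0.33, -0.19 to 0.37, -0.14 to 0.20 and -0.14 to 0.23. Corrected for GC content and length, those of Slc38a2 (-0.22, adjusted p = 0.0113) and Slc1a5 (0.29, adjusted p = 0.00624) passed the threshold, the first with its sign turned.

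**Figure D4:**
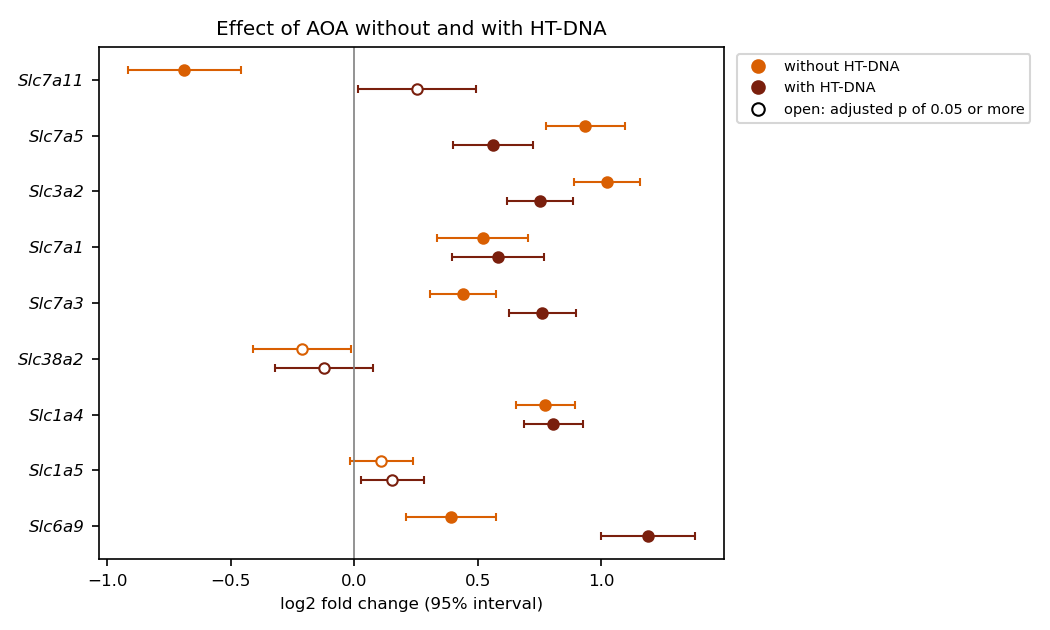
Log2 fold changes with 95% intervals for AOA without HT-DNA (AOA relative to Mock) and with HT-DNA (HT-DNA+AOA relative to HT-DNA); filled points passed an adjusted p of 0.05. The pairs lie farthest apart for Slc7a11 (-0.69 and 0.25) and Slc6a9 (0.39 and 1.19) and nearly coincide for Slc1a4 (0.77 and 0.81).

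The aspartate effect in AOA-treated cells was compared between both arms in the same way. None of the 9 transporters was called by edgeR, where 0.266% of all genes were called higher and 0.778% lower. At an unadjusted p under 0.05 there were 2, Slc1a4 (difference 0.34, SE 0.09, edgeR adjusted p = 0.0629) and Slc7a1 (difference 0.32, SE 0.13, edgeR adjusted p = 0.38). DESeq2 called 1, Slc1a4 (adjusted p = 0.00378), which edgeR also called without HT-DNA+AOA replicate 3 (0.36, adjusted p = 0.0276). With GC content and length corrected for, 2 were called, Slc1a4 (0.27, adjusted p = 0.0171) and Slc38a2 (0.23, adjusted p = 0.0285). For Slc7a11 the difference was 0.06 with a 95% interval of -0.27 to 0.38, and for Slc7a5 it was 0.22 with an interval of -0.01 to 0.44.

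Of 44 other amino acid transporters, 17 were tested. With AOA alone 4 of the 17 rose and 5 fell (median log2 fold change 0.05), and with AOA in HT-DNA-treated cells 6 rose and 4 fell (median 0.21). These are 23.5% higher and 29.4% lower with AOA alone and 35.3% and 23.5% in HT-DNA-treated cells, beside 22.5% and 23.2%, and 22.8% and 22.7%, of all genes tested. A rise of at least 1 on the log2 scale in either comparison was seen for 3 of them. Slc1a7, a glutamate and aspartate carrier, went from 0.465 ± 0.0373 to 1.84 ± 0.253 CPM with AOA (SD, n = 3 each, log2 fold change 1.98, edgeR adjusted p = 5.22e-05) and from 0.283 ± 0.0846 to 2.00 ± 0.533 CPM in HT-DNA-treated cells (SD, n = 3 each, log2 fold change 2.80, edgeR adjusted p = 1.92e-06). The cationic transporter Slc7a2 rose by 1.86 with AOA (edgeR adjusted p = 8.13e-05) and 1.56 in HT-DNA-treated cells (edgeR adjusted p = 0.000249). Slc38a1, a glutamine carrier related to Slc38a2, rose by 0.56 (edgeR adjusted p = 0.00409) and 1.68 (edgeR adjusted p = 8e-09), to 22.7 ± 4.72 CPM with HT-DNA+AOA (SD, n = 3).

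The other genes of the amino acid response, a list of 18 with ATF4 and its known partners and targets, were all tested. AOA raised 15 of the 18 and lowered 1 relative to Mock (median 0.55), and raised 14 and lowered 1 in HT-DNA-treated cells (median 0.69). The higher share was thus 83.3% and 77.8%, against 22.5% and 22.8% of all genes tested. Aspartate lowered 13 and raised 1 relative to AOA (median -0.56), where 22.8% of all genes tested were called lower and 23.4% higher. Relative to HT-DNA+AOA it lowered 15 and raised 1 (median -0.45), where 23.9% of all genes were called lower and 23.7% higher. AOA+Asp cells had 3 of the 18 higher than Mock and 0 lower (median 0.008), where 2.52% of all genes were called higher and 3.95% lower. HT-DNA+AOA+Asp cells had 8 higher than HT-DNA and 3 lower (median 0.15), where 23.2% of all genes were called higher and 23.5% lower. Ddit3, the stress transcription factor CHOP, went from 46.2 ± 2.94 to 368.9 ± 19.4 CPM with AOA (SD, n = 3 each, 7.98-fold, edgeR adjusted p = 3.5e-14) and to 104.2 ± 2.96 CPM with AOA+Asp, still above Mock (log2 fold change 1.17, edgeR adjusted p = 8.61e-08).

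Chac1, which degrades glutathione, rose by 1.91 with AOA (edgeR adjusted p = 9.59e-10) and 2.28 in HT-DNA-treated cells (edgeR adjusted p = 9.03e-11). The pseudokinase Trib3 rose by 1.17 (edgeR adjusted p = 4.14e-08) and 1.49 (edgeR adjusted p = 1.38e-09), and Ddit4, an inhibitor of mTORC1, by 1.05 (edgeR adjusted p = 3.71e-07) and 1.03 (edgeR adjusted p = 5.49e-07). Cebpg, a C/EBP partner of ATF4, rose by 0.53 (edgeR adjusted p = 0.000289) and 1.33 (edgeR adjusted p = 5.86e-09). Atf3 was under 1 CPM on average in every group and passed the test only with HT-DNA+AOA relative to HT-DNA (log2 fold change 2.53, edgeR adjusted p = 0.00227) and for its aspartate effect there (-3.06, edgeR adjusted p = 0.000916). The 6 transporters that rose with AOA stood beside a list in which most members rose. That list was written with earlier results of these data known, so its rise is a description and not a test. For Slc7a11, Slc38a2 and Slc1a5 no rise with AOA was called in either arm in the fit reported here. Alternatives given above called Slc7a11 and Slc1a5 higher.

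The 11 targets of NRF2 on the third list, Slc7a11 left out, were all tested. With AOA 7 fell and 2 rose (median -0.30), and in HT-DNA-treated cells 7 fell and 1 rose (median -0.65). That is 63.6% lower in both, against 23.2% and 22.7% of all genes tested. Aspartate raised 6 and lowered 1 relative to AOA (median 0.27), where 23.4% of all genes tested were called higher and 22.8% lower. Relative to HT-DNA+AOA it raised 6 and lowered 1 (median 0.43), where 23.7% of all genes were called higher and 23.9% lower. HT-DNA alone raised 6 of the 11 and lowered 1 (median 0.24), or 54.5% higher against 24.2% of all genes tested, whereas Slc7a11 fell. Pgd, an enzyme of the pentose phosphate pathway, went from 339.5 ± 8.13 to 163.6 ± 6.65 CPM with AOA (SD, n = 3 each, log2 fold change -1.05, edgeR adjusted p = 1.36e-08) and from 414.8 ± 16.0 to 142.4 ± 20.4 CPM in HT-DNA-treated cells (SD, n = 3 each, log2 fold change -1.54, edgeR adjusted p = 6.75e-11).

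The genes most like each transporter were found by the root mean square difference of log2 CPM over the 18 libraries, each gene centred on its mean, among 12071 genes of at least 1 CPM. The nearest were Ubr4 for Slc7a1 (0.0626), Phf10 for Slc7a3 (0.0725), Stom for Slc1a5 (0.0736), Adpgk for Slc7a5 (0.0809) and Tmem38b for Slc1a4 (0.0897). Within the set, the nearest transporters were Slc7a3 for Slc1a4 (0.123), Slc3a2 for Slc7a5 (0.161) and Slc38a2 for Slc7a11 (0.252). Genes outside the set were closer, and these transporters ranked 13, 86 and 381 among them. Slc6a9 had the least similar neighbours, at 0.221 for its nearest gene and 0.339 for its nearest transporter (Slc7a3). The distance is not scaled by how much a gene varies. Slc6a9 varied the most of the tested transporters (SD of log2 CPM 0.534) and Slc1a5 the least (0.225). These distances describe the same 18 libraries from which the levels above come.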

How the data were processed

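RNA-seq of 18 libraries was analysed from the table the authors deposited, in which 57180 genes have estimated counts, assigned from reads and not normalized by the authors, and 11.6% of the values were not whole (tolerance 1e-06). The aligner, counting program, genome build and annotation are not given in the sources used here. The authors' group means in the table were not used. Groups came from the sample labels. Values were rounded to whole numbers and analysed in R 4.3.3 with edgeR 4.0.16: filterByExpr (minimum count 10, minimum total 15) left 14263 genes, TMM scaling was applied, and all 18 libraries entered 1 robust quasi-likelihood fit of 7 group comparisons and 2 differences of effects. P-values were adjusted by the Benjamini-Hochberg method over all genes tested, with calls under 0.05. Intervals are the estimate ± 1.96 SE, and p-values rest on a spread between cultures that was estimated over all 6 groups and moderated across genes. They do not measure the spread of a single group. The intervals are a little narrower than the test. That of Slc7a11 for HT-DNA+AOA relative to HT-DNA lay above no change at an unadjusted edgeR p of 0.0514.

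The transporters and lists were chosen with earlier results of these data known. All 10 transporters were named, and from each list up to 6 genes called with a change of 1 or more on the log2 scale, either way, in AOA relative to Mock or HT-DNA+AOA relative to HT-DNA. Of the genes nearest in pattern (prior count 2), the 5 closest pairs were named. Slc7a11 was left out of the NRF2 list, and of 2 identifiers for Ddit3 the one with more counts was used. Transcript length, GC content, shared 31-base sequences and loci came from GENCODE vM21 (GRCm38), which holds 51884 of the identifiers. Length and GC content are those of the longest annotated transcript of each gene, and which transcripts the cells express was not examined. The steps were tested on simulated data. Alternatives were DESeq2 1.42.0, RLE normalization, library totals, other filters on low counts, a minimum fold change, only the libraries compared, the replicate number as a block, a loess correction for GC content and length (span 0.3), and each library left out in turn.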

Additional observations from a re-analysis of the deposited data

Results flagged for a closer look

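The AOA effect differed between cells without and with HT-DNA, by the test of that difference in edgeR, for 4 of the 9 tested transporters. Of all genes tested, 7.23% were called higher and 8.26% lower for this difference. The differences in log2 fold change were 0.94 for Slc7a11, 0.80 for Slc6a9, 0.32 for Slc7a3 and -0.37 for Slc7a5. The AOA effects without and with HT-DNA were -0.69 and 0.25 for Slc7a11, 0.39 and 1.19 for Slc6a9, 0.44 and 0.76 for Slc7a3, and 0.94 and 0.56 for Slc7a5. For Slc7a5 the call was lost without 10 of the 12 libraries in turn, for Slc7a3 without 6, and for Slc7a11 and Slc6a9 without none. The Slc7a5 and Slc7a3 calls were also lost when only the libraries compared were fitted (edgeR adjusted p = 0.0685 and 0.0972). Slc7a11, Slc6a9 and Slc7a3 were lower in HT-DNA than in Mock before AOA was compared (19.0, 28.9 and 58.7 against 37.7, 68.2 and 77.4 CPM), and Slc7a5 was higher (186.6 against 144.8 CPM). The part of these starting levels in the differences was not tested.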

How the results depend on the processing

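Of the alternative values for single transporters, 1181 kept direction and call, 38 gained a call, 89 lost one and 15 changed sign. The cause of these shifts was not tested, except that a minimum absolute log2 fold change of 1 removes smaller changes by construction. With it, 1 transporter was called for AOA relative to Mock (1066 genes), 1 for AOA+Asp relative to AOA (1023), 0 for AOA+Asp relative to Mock (73), 1 for HT-DNA relative to Mock (623), 1 for HT-DNA+AOA relative to HT-DNA (1462), 0 for HT-DNA+AOA+Asp relative to HT-DNA+AOA (1101), 1 for HT-DNA+AOA+Asp relative to HT-DNA (484), 0 for the difference of AOA effects (286 genes) and 54 genes for the difference of aspartate effects. Only the libraries compared gave 2460 genes for AOA+Asp relative to Mock (923 with all 18), 4167 for HT-DNA+AOA relative to HT-DNA, 4275 for HT-DNA+AOA+Asp relative to HT-DNA+AOA, 1019 genes and 2 transporters for the difference of AOA effects and 66 genes for that of aspartate effects. The correction for GC content and length gave 5 transporters and 1649 genes for AOA+Asp relative to Mock, and 2 transporters and 394 genes for the difference of aspartate effects, where DESeq2 gave 1 and 316 and no filter gave 303 genes (149 in the fit reported).

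Leaving out each library gave 1 transporter and 359 to 723 genes for AOA+Asp relative to Mock, 2 to 5 transporters and 1147 to 5422 genes (2209 with all) for the difference of AOA effects, and 0 to 1 transporters and 69 to 418 genes for that of aspartate effects, each highest for the genes without HT-DNA+AOA replicate 3 in both differences. Signs changed with library totals for Slc1a5 in AOA relative to Mock (-0.0231) and Slc7a3 in AOA+Asp relative to Mock (-0.0086). They changed with the correction for GC content and length for Slc7a11 (-0.0033) and Slc7a5 (0.0166) in AOA+Asp relative to Mock, Slc7a1 in HT-DNA relative to Mock (0.0168), Slc7a5 (0.0163) and Slc1a5 (0.0220) in HT-DNA+AOA+Asp relative to HT-DNA, and Slc7a1 (-0.0216) and Slc38a2 (-0.22, called) in the difference of AOA effects. They changed without 1 library for Slc7a1 (range -0.0443 to 0.145), Slc38a2 (-0.0540 to 0.209) and Slc1a5 (-0.0152 to 0.1004) in the difference of AOA effects and for Slc7a11 in that of aspartate effects (-0.0764 to 0.180).

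With the replicate number as a block, 80 of 81 values kept their call, and Slc7a1 in HT-DNA relative to Mock gained one (-0.22, adjusted p = 0.0256). The numbers were not taken as pairs: deviations of same-numbered libraries correlated by -0.188 to 0.421 (median 0.0138, 13 of 45 pairs over 0.1). Those of differently numbered libraries correlated by -0.428 to 0.412 (median -0.00184, 15 of 90 pairs over 0.1). In none of the 7 group comparisons were all 3 same-numbered pairs over 0.1. They were for AOA and HT-DNA+AOA (0.421, 0.111 and 0.205), which meet only in the difference of AOA effects, and 9 of 18 libraries were closest to their own number, a hint from the data and not from the design. Slc43a1 (0 to 7 counts) was tested only without the filter on low counts, where it was called lower for AOA relative to Mock (adjusted p = 0.0375).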
